A study of Homo sapiens with 12 samples.

Results

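DNA repair genes were examined in RNA sequencing (RNAseq) libraries of C4-2 cells treated with an inhibitor of PDZ binding kinase (PBK). The genes were chosen by name from a list of 45 genes of base excision repair (19 genes), nucleotide excision repair (12), mismatch repair (5), non-homologous end joining (8) and direct reversal (MGMT alone). All 45 were found among the 54127 gene identifiers of the deposited counts. C4-2 is an established prostate cancer cell line, a castration-resistant derivative of LNCaP. In both groups cells were grown in RPMI medium with 10% fetal bovine serum, and they received either the vehicle dimethyl sulfoxide (DMSO) or 1 µM of the inhibitor HI-TOPK-032 (PBKi) for 6 h, with 6 samples in each group. Neither group carried a transgene or deletion. The labels do not say that the replicates were separate cultures, so p-values measure the spread between these samples, which may be technical. One cell line, one inhibitor, one dose and one time were compared, so an effect of the compound on other targets than PBK cannot be told apart from an effect through PBK.

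Each repair route removes a different kind of damage. In base excision repair a glycosylase cuts out a single damaged base, the endonuclease APEX1 opens the strand, polymerase β fills the gap and a ligase seals it, while PARP1 and XRCC1 gather these enzymes at the break. Nucleotide excision repair removes bulky lesions such as UV photoproducts: XPC and the UV-DDB complex find them across the genome, ERCC6 and ERCC8 find stalled RNA polymerase, and the TFIIH helicases and the nucleases ERCC5 and ERCC1-ERCC4 open and cut the strand. Mismatch repair corrects copying errors through MutS and MutL heterodimers. Non-homologous end joining holds broken ends with the Ku heterodimer and the kinase PRKDC and joins them with LIG4 and XRCC4, and MGMT takes alkyl groups directly off guanine.

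The DMSO samples had 9663203 to 28029908 reads counted on genes and the PBKi samples 13122415 to 22817803, and 14505 genes had enough counts to be tested. PBKi replicates 3 and 6 had the most reads outside genes, at 6.76% and 6.46%, against 4.11 to 4.97% in DMSO. Reads that fell on more than 1 gene were 2.83 to 2.94% of the DMSO reads, below the 3.04 to 3.14% of every PBKi sample. The 9 prostate epithelium markers were all detected, with a summed level of 4455 to 5222 CPM, the counts of a gene scaled to a fixed library total, in DMSO and 2058 to 2962 CPM in PBKi. KLK3 was the largest part of this sum, with means of 2959 CPM in DMSO and 1131 CPM in PBKi. The fold change was below 0 for 7 of the 9 markers. FOLH1 (means of 506 CPM in DMSO and 634 CPM in PBKi) and KRT8 (154 and 166 CPM) were higher, so the sum does not describe each marker. The 12 leukocyte, stromal and endothelial markers that matched had a summed level of 25.6 to 31.3 CPM (DMSO) and of 23.5 to 29.2 CPM (PBKi), most of it COL1A1. The leukocyte marker PTPRC had a mean of 0.0351 CPM in DMSO and 0.0723 CPM in PBKi, and CD3E 0 and 0.0125 CPM. The part of these differences in the results was not tested.

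Of the 44 repair genes that passed the filter on low counts, 12 were lower and 5 were higher in PBKi, and 27 did not pass the threshold. These calls used the quasi-likelihood test of edgeR with an adjusted p (Benjamini-Hochberg over all genes tested) under 0.05. Among all 14505 genes, 21.5% were lower and 20.1% were higher, so the repair genes had a lower share of 27.3% and a higher share of 11.4%. The median log2 fold change of the repair genes was -0.08, and that of all genes was -0.01. Individual changes were modest, from -0.60 for NEIL3 to 0.75 for LIG4 on the log2 scale. The groups did not overlap for 9 repair genes, of which NEIL3, NTHL1, LIG1, UNG, ERCC8 and XPA were lower and XPC, PMS2 and LIG4 were higher. Across all genes, 9.68% were lower and 10.5% were higher without overlap.

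The calls were counted by pathway. Base excision repair had 6 lower and 0 higher genes of 19, with 15 of the 19 fold changes below 0 and a median of -0.10. Nucleotide excision repair held calls of both directions, with 4 lower and 3 higher genes of 12 and a median of -0.09. Mismatch repair had 1 higher and 0 lower gene of 5, with a median of 0.01. End joining had 2 lower and 1 higher gene of the 7 tested and a median of -0.11. Against 21.5% of all genes, the lower share was 31.6% in base excision repair, 33.3% in nucleotide excision repair, 0% in mismatch repair and 28.6% in end joining. Against 20.1% of all genes, the higher share was 0%, 25%, 20% and 14.3% in the same order. Leaving out 1 sample at a time gave 0 to 2 lower genes and a median of -0.11 to -0.03 in end joining, and a median of -0.02 to 0.07 in mismatch repair, so the sign of the latter was not stable. With so few genes in a pathway, these shares are given as counts, and no test between pathways was run.

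**Figure D1:**
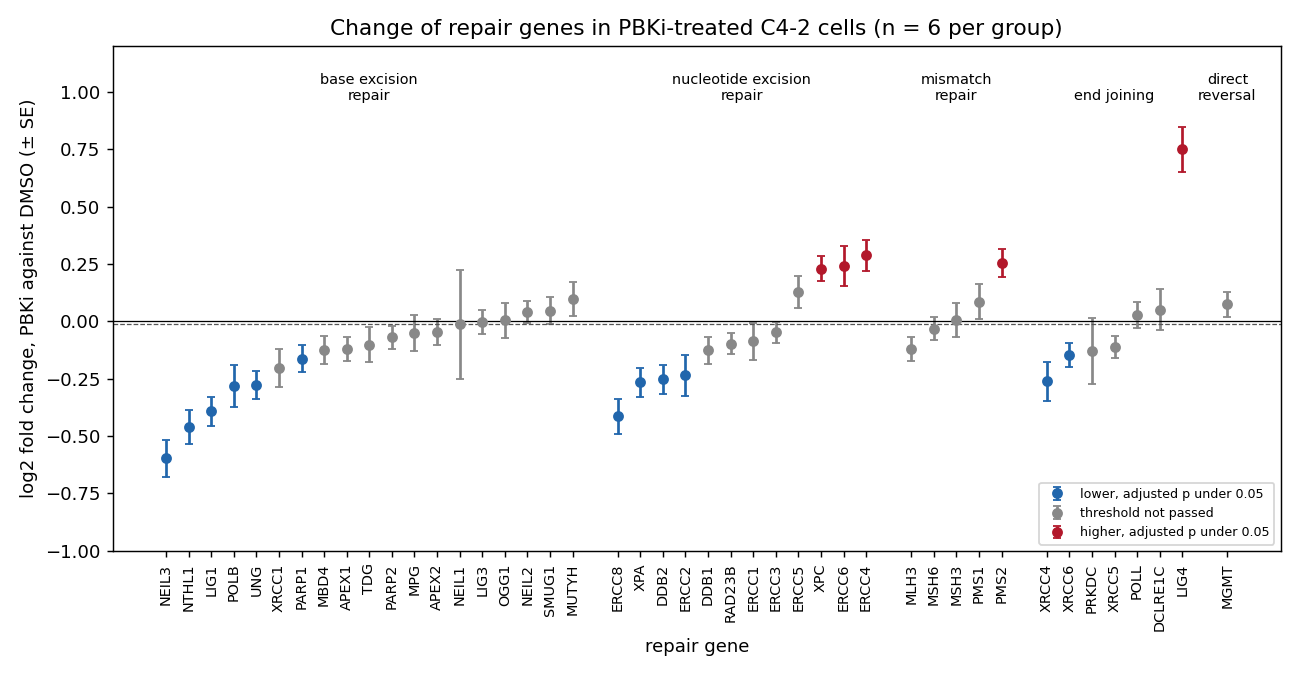
Log2 fold change of PBKi against DMSO (y axis, edgeR fit, bars show the standard error, 6 samples a group) for the 44 repair genes tested, ordered by value within each pathway (x axis). Blue genes were lower and red genes higher at an adjusted p under 0.05, grey genes did not pass, and the dashed line marks the median of all genes (-0.01); NEIL3 (-0.60) and LIG4 (0.75) lie at the extremes, and base excision repair holds no red point.

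The sequence upstream of the start site is shown for the gene of each pathway with the largest absolute fold change past the threshold, to show the start regions of the genes that changed most. The 250 bases before the RefSeq start (GRCh38.p14) lie at chr4:177309624-177309873 on the plus strand for NEIL3, and on the minus strand at chr5:60945071-60945320 for ERCC8, chr7:6009107-6009356 for PMS2 and chr13:108218350-108218599 for LIG4. They are written 5′ to 3′ towards the gene. Capitals mark matches on either strand to 4 searched motifs, namely CCAAT, the E-box CACGTG, the antioxidant response element (ARE) TGACNNNGC, and the E2F letters TTTCCCGC or TTTGGCGC.
NEIL3: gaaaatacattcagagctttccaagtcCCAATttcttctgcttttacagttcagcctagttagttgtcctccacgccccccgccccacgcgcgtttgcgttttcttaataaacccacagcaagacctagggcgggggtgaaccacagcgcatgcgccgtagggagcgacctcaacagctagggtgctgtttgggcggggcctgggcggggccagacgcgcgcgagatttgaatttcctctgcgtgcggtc
ERCC8: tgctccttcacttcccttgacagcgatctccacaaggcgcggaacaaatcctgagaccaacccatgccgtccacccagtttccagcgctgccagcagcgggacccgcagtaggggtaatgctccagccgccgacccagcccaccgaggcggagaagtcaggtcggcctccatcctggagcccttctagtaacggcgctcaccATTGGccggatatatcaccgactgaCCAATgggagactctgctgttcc
PMS2: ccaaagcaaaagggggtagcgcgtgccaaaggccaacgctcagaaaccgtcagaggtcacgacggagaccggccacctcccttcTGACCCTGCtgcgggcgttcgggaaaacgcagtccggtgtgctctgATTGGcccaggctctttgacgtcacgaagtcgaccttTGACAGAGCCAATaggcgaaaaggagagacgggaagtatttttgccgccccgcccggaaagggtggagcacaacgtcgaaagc
LIG4: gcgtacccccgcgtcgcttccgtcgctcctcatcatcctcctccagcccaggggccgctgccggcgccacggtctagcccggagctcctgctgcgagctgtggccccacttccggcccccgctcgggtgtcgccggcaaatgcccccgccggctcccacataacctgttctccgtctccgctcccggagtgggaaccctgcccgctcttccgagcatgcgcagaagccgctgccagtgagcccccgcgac

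NEIL3 held 1 CCAAT match and ERCC8 held 2, PMS2 held 2 CCAAT and 2 ARE matches of which 1 of each share bases, and LIG4 held none. RefSeq promoters were matched for 40 of the 45 repair genes. Among these 40 promoters, CCAAT occurred in 18, against 32.0% of all 35116 promoters of this length, and so in 45% of the repair genes matched. E2F letters occurred in 3 of 40 (7.5%, against 1.93% of all promoters), in LIG1, XPC and MSH3, of which LIG1 was lower, XPC was higher and MSH3 did not pass. The E-box occurred in 6 (15%, against 6.35%) and the ARE in 4 (10%, against 10.9%). The median share of G and C bases was 64.2% in the repair gene promoters and 58% in all promoters. The part of this difference in the motif shares was not tested. CCAAT was held by 5 of the 11 lower genes with a promoter, 1 of the 5 higher genes and 12 of the 23 genes that did not pass. A match describes letters in this window and is not a binding site.

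Among the base excision repair glycosylases, the enzymes that remove damaged bases, UNG, NTHL1 and NEIL3 were lower and the other 8 did not pass. NEIL3 (chr4:178231028-178284090, plus strand, GRCh37) is a glycosylase for oxidised bases, in particular in single-stranded and cross-linked DNA. Its level was 19.8, 22.3 and 27.3 CPM in the lowest, median and highest DMSO sample and 14.4, 15.6 and 16.8 CPM in PBKi. Means were 23.3 ± 2.95 and 15.6 ± 1.00 CPM (SD, n = 6), a log2 fold change of -0.60 ± 0.08 (SE) with an adjusted p of 1.71e-05 in edgeR. All 6 PBKi samples lay below every DMSO sample. NTHL1, which removes oxidised pyrimidines, had 20.2, 22.4 and 27.2 CPM in the lowest, median and highest DMSO sample and 15.1, 17.1 and 17.7 CPM in PBKi. Its means were 23.0 ± 2.39 and 16.7 ± 0.986 CPM (SD, n = 6; log2 fold change -0.46 ± 0.07, edgeR adjusted p = 7.74e-05), again without overlap. UNG, the main uracil glycosylase, had 87.7, 94.5 and 107 CPM in DMSO against 73.1, 78.8 and 85.8 CPM in PBKi. Its mean fell from 95.2 ± 7.89 to 78.6 ± 4.85 CPM (SD, n = 6; log2 fold change -0.28 ± 0.06, edgeR adjusted p = 0.00137), and its groups did not overlap either.

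The glycosylases that did not pass had log2 fold changes between -0.12 and 0.10. SMUG1, another uracil glycosylase, had 0.05 (95% interval -0.08 to 0.17), and the thymine mismatch glycosylases MBD4 and TDG had -0.12 (-0.26 to 0.01) and -0.10 (-0.27 to 0.07). OGG1 and MUTYH, which deal with 8-oxoguanine and the adenine placed opposite it, had 0.00 (-0.17 to 0.18) and 0.10 (-0.07 to 0.26). NEIL2 had 0.04 (-0.07 to 0.15) and the alkyladenine glycosylase MPG -0.05 (-0.23 to 0.12). NEIL1 had few reads, with means of 2.29 ± 0.717 CPM in DMSO and 2.29 ± 0.819 CPM in PBKi (SD, n = 6), and its interval of -0.54 to 0.52 was the widest of all repair genes. Among the 3 NEIL paralogues, NEIL3 alone passed the threshold.

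Downstream of the glycosylases, the sealing and gap-filling enzymes LIG1 and POLB and the break sensor PARP1 were lower. LIG1, the ligase of long-patch repair and of Okazaki fragments, had 27.1, 29.3 and 34.5 CPM in the lowest, median and highest DMSO sample and 20.5, 22.8 and 23.7 CPM in PBKi. Its means of 29.8 ± 2.52 and 22.7 ± 1.17 CPM (SD, n = 6) gave a log2 fold change of -0.39 ± 0.06 (edgeR adjusted p = 0.000104), with no overlap between groups. POLB, the gap-filling polymerase, had 24.8, 31.4 and 36.8 CPM in DMSO and 21.7, 26.4 and 29.2 CPM in PBKi. The POLB groups overlapped, with means of 31.2 ± 4.42 and 25.9 ± 2.76 CPM (SD, n = 6; log2 fold change -0.28 ± 0.09, edgeR adjusted p = 0.0200). PARP1, which marks strand breaks with poly(ADP-ribose), had 463, 474 and 540.1 CPM in DMSO and 389, 431 and 486 CPM in PBKi. Its groups also overlapped, with means of 485 ± 29.8 and 433 ± 33.5 CPM (SD, n = 6; log2 fold change -0.16 ± 0.06, edgeR adjusted p = 0.0342). POLB and PARP1 lost their calls when single samples were left out. For POLB these were DMSO replicates 1 and 3 and PBKi replicates 4 and 6, with adjusted p-values of 0.0544 to 0.0640 in edgeR. For PARP1 they were DMSO replicates 4, 5 and 6 and PBKi replicates 1, 2, 3 and 6, with adjusted p-values of 0.0593 to 0.102.

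APEX1, the abasic site endonuclease, had the highest level per exon length in this pathway, at 142 ± 7.82 CPM per kb in DMSO (SD, n = 6). Its samples had 243, 271 and 286 CPM in the lowest, median and highest DMSO sample and 223, 247 and 264 CPM in PBKi, which overlapped. With means of 267 ± 14.7 and 246 ± 13.5 CPM (SD, n = 6), its log2 fold change of -0.12 ± 0.05 did not pass (edgeR adjusted p = 0.0703). The same held for the scaffold XRCC1 at -0.20 (adjusted p = 0.0565 in edgeR), whose 95% interval ran from -0.38 to -0.02. APEX2 had a log2 fold change of -0.05, PARP2 had -0.07 and LIG3, the ligase that XRCC1 carries, had 0.00, with LIG3 bounded between -0.12 and 0.11.

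In nucleotide excision repair, the lower genes were ERCC8, XPA, DDB2 and ERCC2 and the higher genes were ERCC4, ERCC6 and XPC. ERCC8 (chr5:60162281-60240900, minus strand, GRCh37) is the CSA subunit that, with ERCC6, starts repair at stalled RNA polymerase. It had 16.7, 19.5 and 21.0 CPM in the lowest, median and highest DMSO sample and 12.8, 14.1 and 16.5 CPM in PBKi. Its means were 19.2 ± 1.74 and 14.4 ± 1.38 CPM (SD, n = 6; log2 fold change -0.41 ± 0.08, edgeR adjusted p = 0.000393), and the groups did not overlap. Its partner ERCC6 (CSB, a chromatin remodeller) moved the other way, with 18.2, 20.3 and 25.01 CPM in DMSO and 19.9, 24.6 and 27.5 CPM in PBKi. The ERCC6 groups overlapped, at means of 20.7 ± 2.33 and 24.3 ± 2.87 CPM (SD, n = 6; log2 fold change 0.24 ± 0.09, edgeR adjusted p = 0.0354). Leaving out DMSO replicate 1, 2, 3 or 4 or PBKi replicate 2, 3 or 6 took the ERCC6 call away, with adjusted p-values of 0.0532 to 0.0871.

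The genome-wide damage sensors also split. XPC, which recognises the distorted helix, had 49.8, 54.6 and 61.67 CPM in the lowest, median and highest DMSO sample and 61.99, 65.4 and 67.1 CPM in PBKi. Its means of 55.5 ± 4.53 and 64.9 ± 2.06 CPM (SD, n = 6) gave a log2 fold change of 0.23 ± 0.06 (edgeR adjusted p = 0.00317), and the groups were separate by a narrow gap. XPC shares 24.6% of its exon length with an antisense gene, and reads of the pair cannot be told apart where the counting did not use strand. DDB2, the UV-lesion binding subunit of UV-DDB, had 34.04, 35.5 and 37.5 CPM in DMSO and 27.0, 29.5 and 34.08 CPM in PBKi. Its highest PBKi sample exceeded the lowest DMSO sample, with means of 35.7 ± 1.35 and 29.9 ± 2.54 CPM (SD, n = 6; log2 fold change -0.25 ± 0.06, edgeR adjusted p = 0.00307). XPA, the scaffold that checks the lesion, had 22.9, 25.02 and 28.3 CPM in DMSO and 20.1, 21.3 and 22.5 CPM in PBKi. Its means of 25.4 ± 1.98 and 21.2 ± 1.03 CPM (SD, n = 6; log2 fold change -0.27 ± 0.06, edgeR adjusted p = 0.00294) came from groups without overlap.

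Of the enzymes that open and cut the strand, the nuclease subunit ERCC4 (XPF) had 28.6, 32.6 and 36.7 CPM in the lowest, median and highest DMSO sample and 34.8, 39.8 and 43.1 CPM in PBKi. ERCC4 rose from a mean of 32.4 ± 2.70 to 39.4 ± 2.92 CPM (SD, n = 6; log2 fold change 0.29 ± 0.07, edgeR adjusted p = 0.00224), although the groups overlapped. The TFIIH helicase ERCC2 (XPD) had 16.6, 18.1 and 23.3 CPM in DMSO and 13.3, 15.8 and 18.1 CPM in PBKi, which overlapped. Its means were 18.6 ± 2.48 and 15.7 ± 1.56 CPM (SD, n = 6; log2 fold change -0.23 ± 0.09, edgeR adjusted p = 0.0416). ERCC2 kept its call in only 3 of 12 fits with a sample removed. The call was lost without DMSO replicate 1, 2, 4 or 5 or without PBKi replicate 2, 3, 4, 5 or 6, at adjusted p-values of 0.0502 to 0.121. The other members did not pass, with log2 fold changes of -0.13 for DDB1, -0.09 for ERCC1 (the partner of ERCC4), -0.05 for the helicase ERCC3 and 0.13 for the nuclease ERCC5. RAD23B, which stabilises XPC, had the highest level of the pathway at 119 ± 6.23 CPM per kb in DMSO (SD, n = 6). Its samples had 524, 541 and 600.1 CPM in the lowest, median and highest DMSO sample and 503, 511 and 537 CPM in PBKi. The RAD23B groups overlapped, with means of 551 ± 28.7 and 515 ± 12.2 CPM (SD, n = 6) and a log2 fold change of -0.10 ± 0.05 (edgeR adjusted p = 0.111).

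**Figure D2:**
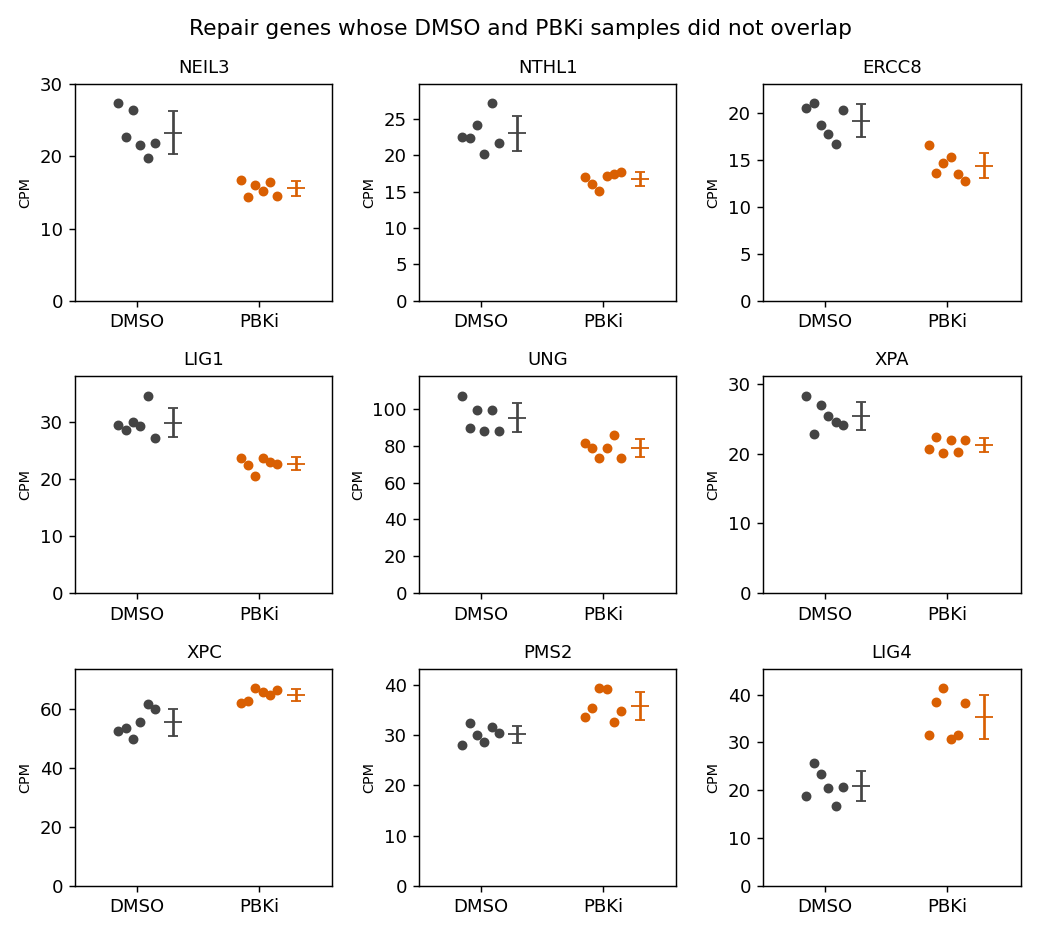
TMM-normalised CPM (y axis, from 0) in each DMSO and PBKi sample (x axis, points) with the group mean and SD beside them (n = 6), for the 9 repair genes whose groups did not overlap. NEIL3, NTHL1, ERCC8, LIG1, UNG and XPA were lower in all 6 PBKi samples, and XPC, PMS2 and LIG4 were higher in all 6.

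Within mismatch repair, PMS2 was the single gene past the threshold. PMS2 (chr7:6010556-6048761, minus strand, GRCh37) is the endonuclease subunit of the main MutL heterodimer. It had 28.0, 30.3 and 32.39 CPM in the lowest, median and highest DMSO sample and 32.69, 35.2 and 39.4 CPM in PBKi. Its mean rose from 30.2 ± 1.66 to 35.9 ± 2.81 CPM (SD, n = 6; log2 fold change 0.25 ± 0.06, edgeR adjusted p = 0.00332), and every PBKi sample lay above every DMSO sample. PMS2 has near-identical copies in the genome, so its level is uncertain where reads were shared with them. MLH3, the alternative MutL partner, had the highest level per exon length of the 5 genes, at 7.60 ± 0.381 CPM per kb in DMSO (SD, n = 6), although MSH6 came first when the longest transcript was taken as the length. MLH3 had 57.9, 64.2 and 67.1 CPM in the lowest, median and highest DMSO sample and 54.3, 59.2 and 61.6 CPM in PBKi. With means of 63.5 ± 3.18 and 58.4 ± 2.85 CPM (SD, n = 6), its log2 fold change of -0.12 ± 0.05 did not pass (edgeR adjusted p = 0.0715). PMS1, a MutL homologue without a nuclease site, had 0.09 (95% interval -0.08 to 0.26). The MutS partners MSH3, for longer loops, and MSH6, for single mismatches, had log2 fold changes of 0.01 and -0.03, with intervals of -0.16 to 0.17 and -0.14 to 0.08.

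In end joining, LIG4 had the largest change of all repair genes. LIG4 (chr13:108859787-108870716, minus strand, GRCh37) is the ligase that seals broken ends. It had 16.8, 20.5 and 25.6 CPM in the lowest, median and highest DMSO sample and 30.6, 34.9 and 41.3 CPM in PBKi. All PBKi samples lay above all DMSO samples, and the mean of 35.3 ± 4.58 CPM was 68.8% above the 20.9 ± 3.17 CPM of DMSO (SD, n = 6; log2 fold change 0.75 ± 0.10, edgeR adjusted p = 1.23e-05). XRCC4, the cofactor that LIG4 binds, was lower, with 10.1, 12.8 and 15.1 CPM in DMSO and 10.2, 10.6 and 11.5 CPM in PBKi. The XRCC4 groups overlapped, at means of 12.8 ± 1.69 and 10.8 ± 0.586 CPM (SD, n = 6; log2 fold change -0.26 ± 0.09, edgeR adjusted p = 0.0206). Its call was lost without DMSO replicate 1 or 2 or PBKi replicate 4, at adjusted p-values of 0.0577 to 0.0687.

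The Ku subunits were among the most abundant repair transcripts. XRCC6 (Ku70) had 467, 528 and 539 CPM in the lowest, median and highest DMSO sample and 436, 472 and 484 CPM in PBKi. Its groups overlapped, with means of 515 ± 29.6 and 466 ± 19.8 CPM (SD, n = 6; log2 fold change -0.15 ± 0.05, edgeR adjusted p = 0.0300). The XRCC6 call did not hold without DMSO replicate 1, 3 or 4 or PBKi replicate 3, 4, 5 or 6, at adjusted p-values of 0.0504 to 0.0987. XRCC5 (Ku80) had a log2 fold change of -0.11 and did not pass (95% interval -0.22 to 0.00, edgeR adjusted p = 0.0701). PRKDC, the catalytic subunit of DNA-PK, varied between samples of one group more than between groups. In DMSO it was at 463 to 479 CPM in replicates 1 to 3 and at 557 to 727 CPM in replicates 4 to 6, and in PBKi at 364 to 499 CPM in replicates 1 to 3 and at 496 to 714 CPM in replicates 4 to 6. Its log2 fold change of -0.13 ± 0.14 did not pass over all samples (edgeR adjusted p = 0.494), nor within replicates 1 to 3 (-0.09, adjusted p = 0.424) or replicates 4 to 6 (-0.15, adjusted p = 0.465). The nuclease DCLRE1C (Artemis) and the polymerase POLL had log2 fold changes of 0.05 and 0.03. NHEJ1, which bridges the ligase complex, had at most 1 count in any DMSO sample and 2 counts in any PBKi sample and could not be tested. Such counts do not show that NHEJ1 was not expressed, and how its reads were assigned was not tested. MGMT, the direct reversal enzyme, had means of 31.0 ± 1.80 and 32.7 ± 1.22 CPM (SD, n = 6; log2 fold change 0.07, edgeR adjusted p = 0.298).

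For the 27 genes that did not pass, the 95% interval of the log2 fold change lay within 0.25 of 0 for 17 genes and within 0.5 of 0 for 26, NEIL1 being the exception.

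Levels in DMSO were compared between genes as CPM per kb of exon, with the length taken as the union of all annotated exons. XRCC6 at 159 ± 9.14, APEX1 at 142 ± 7.82, RAD23B at 119 ± 6.23 and XRCC5 at 103 ± 4.55 CPM per kb (SD, n = 6) came first, and PARP1 followed at 26.3 CPM per kb. The ranges of XRCC5 and PARP1, and of RAD23B and XRCC5, did not overlap on this scale. The order depended on the length used, since the exon union is far longer than the transcript for some genes. By the longest transcript XRCC6 (190.2 ± 10.9 CPM per kb) was followed by XRCC5 (150 ± 6.60), APEX1 (148 ± 8.18), RAD23B (134 ± 6.99) and PARP1 (78.1 ± 4.79 CPM per kb, SD, n = 6), so that XRCC5 moved above RAD23B and PARP1 came closer. ERCC8, NEIL1 and NHEJ1 stayed among the 4 lowest on both scales. At the lower end, ERCC8 stood at 0.724 and NEIL1 at 0.330 CPM per kb, and NHEJ1 at 0.0057. In the order by exon union, 8 of the 44 steps between neighbours had ranges that did not overlap. Elsewhere in the order the samples of neighbouring genes overlapped.

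**Figure D3:**
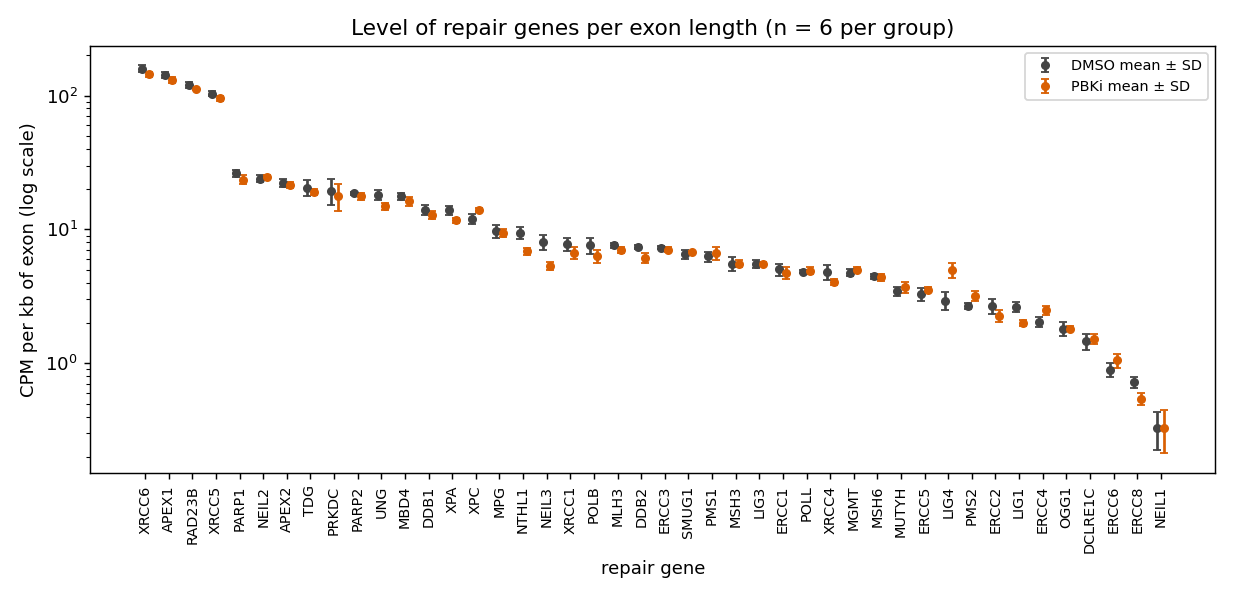
Mean level of each repair gene in CPM per kb of exon (y axis, log scale, bars show the SD, n = 6) in DMSO and PBKi samples, in the order of the DMSO level (x axis; NHEJ1, not tested, is left out). XRCC6, APEX1, RAD23B and XRCC5 lie above 100 CPM per kb and ERCC8 and NEIL1 below 1, and LIG4 shows the widest gap between the groups.

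Genes that work in one complex or one step were then compared within each sample, since the scaling of a library cancels in a ratio. Of 19 such pairs, the log2 ratio differed between groups for 8 by an exact two-sided permutation test with Benjamini-Hochberg adjustment over the 19, and 4 of these had groups without overlap. The share among arbitrary pairs of genes was not computed. Of all single genes, 21.5% were lower and 20.1% higher, and 9.68% and 10.5% were so without overlap. These shares are of single genes, not of ratios under the permutation test. Without a share among arbitrary pairs, the count does not show an imbalance particular to partners. UNG, XPC, PMS2 and LIG1 had passed on their own, while SMUG1, RAD23B, MLH3 and LIG3 had not. The ratio of XRCC4 to LIG4 had the largest difference. It fell from -0.70 ± 0.21 to -1.69 ± 0.20 (SD, n = 6), a difference of -0.99 with an adjusted permutation p of 0.0103. The ratio of UNG to SMUG1, both uracil glycosylases, fell from 1.27 ± 0.09 to 0.94 ± 0.09 (SD, n = 6, adjusted permutation p = 0.0103). The ratio of XPC to its stabiliser RAD23B rose from -3.31 ± 0.09 to -2.99 ± 0.04 (SD, n = 6, adjusted permutation p = 0.0103). The ratio of PMS2 to MLH3, which compete for the same MutL partner, rose from -1.07 ± 0.10 to -0.71 ± 0.16 (SD, n = 6, adjusted permutation p = 0.0103). These 4 pairs did not overlap between groups. In 4 further pairs the ratio differed with overlapping samples. ERCC6 to ERCC8 differed by 0.64 (adjusted permutation p = 0.0206), LIG1 to LIG3 by -0.39 (0.0165), ERCC1 to ERCC4 by -0.37 (0.0463) and XRCC1 to LIG3 by -0.21 (0.0463). LIG3 shares 29.1% of its exon length with the antisense gene RFFL, which was higher (log2 fold change 0.26, edgeR adjusted p = 0.00450), and the part of RFFL reads in both LIG3 ratios was not tested. XRCC1 to LIG3 lost its call without DMSO replicate 1, 3, 4 or 5 or PBKi replicate 1, 2, 3 or 4, with adjusted permutation p-values of 0.0514 to 0.0705. ERCC1 to ERCC4 lost it without DMSO replicate 1, 3, 4 or 5 or PBKi replicate 2, 3, 5 or 6, with values of 0.0514 to 0.0823.

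Other partners did not pass. The Ku subunits XRCC5 to XRCC6 differed by 0.03 (adjusted permutation p = 0.138), with a ratio of 0.13 ± 0.04 in DMSO and 0.16 ± 0.01 in PBKi (SD, n = 6). MSH6 to MSH3 differed by -0.04 (adjusted permutation p = 0.622), DDB2 to DDB1 by -0.13 (0.138), ERCC2 to ERCC3 by -0.19 (0.138), PARP1 to PARP2 by -0.10 (0.270) and PMS2 to PMS1 by 0.15 (0.263). TDG to MBD4, OGG1 to MUTYH, NEIL1 to NEIL2, APEX1 to POLB and PRKDC to XRCC5 differed by -0.09 to 0.14 and did not pass either.

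**Figure D4:**
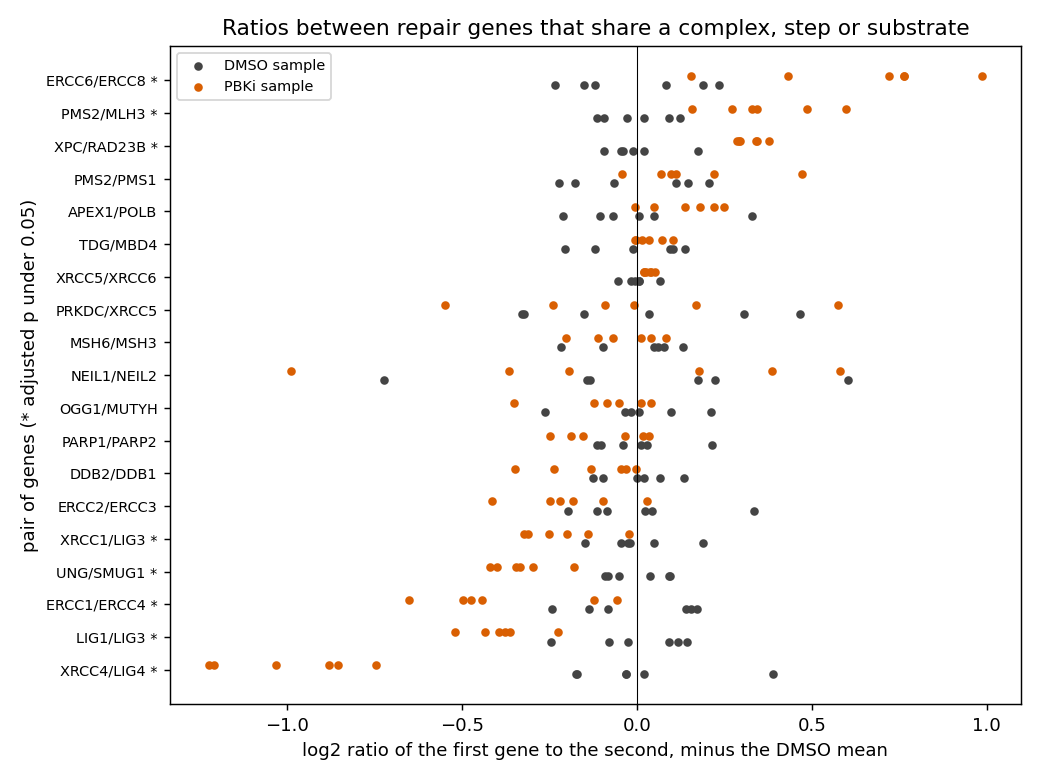
Log2 ratio of the first to the second gene of each pair in every DMSO and PBKi sample (x axis, minus the mean of the 6 DMSO samples) for 19 pairs of repair genes (y axis), with an asterisk at an adjusted permutation p under 0.05. The XRCC4 to LIG4 samples lie farthest to the left without overlap, and the XRCC5 to XRCC6 samples stay close to 0.

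In each library, the median over the genes of a pathway was taken relative to the DMSO mean. For base excision repair it lay between -0.12 and 0.07 in DMSO and between -0.20 and -0.02 in PBKi on the log2 scale, with overlap. For nucleotide excision repair it lay between -0.10 and 0.08 in DMSO and between -0.16 and -0.01 in PBKi. Mismatch repair spread around 0 in both groups, from -0.04 to 0.04 in DMSO and from -0.10 to 0.13 in PBKi. Among these pathways, only end joining had no overlap. Its 7 genes tested gave -0.020 to 0.062 in DMSO libraries and -0.15 to -0.032 in PBKi libraries, a narrow gap. The groups of its lower genes, XRCC4 and XRCC6, overlapped, and LIG4 moved against the median. Of all single genes, 9.68% were lower and 10.5% higher without overlap. The share among medians of arbitrary gene lists was not computed.

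**Figure D5:**
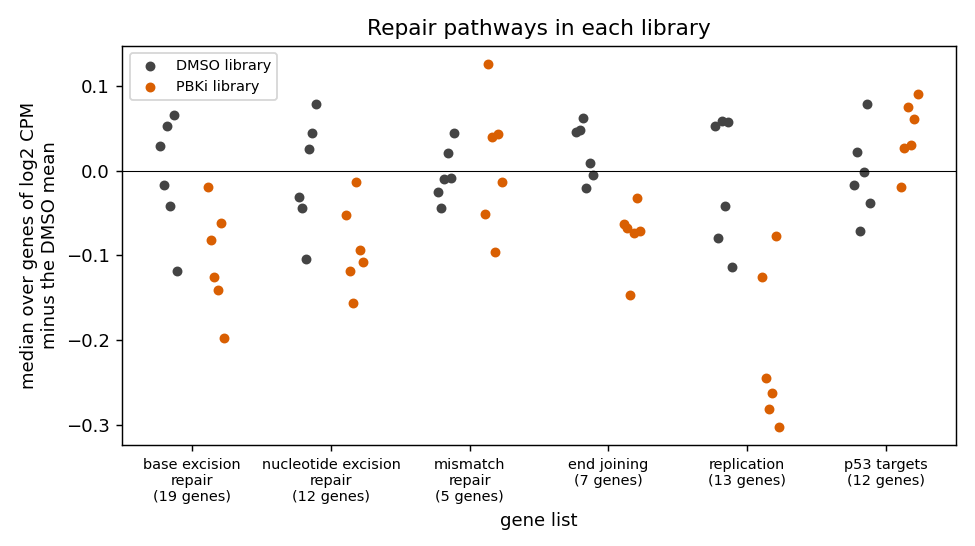
Median over the genes of each list of the log2 CPM minus the DMSO mean (y axis), 1 point per DMSO or PBKi library (x axis, lists with their number of genes). PBKi libraries of base excision and nucleotide excision repair lie lower but overlap those of DMSO, mismatch repair shows no separation, and end joining does not overlap.

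Further genes of the same pathways, listed as partners, were lower more often than they were higher, with 20 lower and 4 higher of 45 tested (44.4% and 8.89%, against 21.5% and 20.1% of all genes) and a median of -0.16. APLF and GTF2H4 had too few counts to be tested, which does not show that they were not expressed. The mismatch repair partners, which excise and resynthesise the strand and also serve replication, had 8 lower and 0 higher of 10 and a median of -0.29. The replication factor C subunits RFC3 (-0.56) and RFC4 (-0.50) had the largest changes there, while 0 of the 5 MutS and MutL genes described above were called lower. The base excision partners had 3 lower and 2 higher of 7, led by PARP3 (0.51), a poly(ADP-ribose) polymerase, and HMGB1 (-0.40), a chromatin protein that takes part in long-patch repair. The nucleotide excision partners had 6 lower and 2 higher of 16, with GTF2H1 (0.42), a TFIIH subunit, and RPA3 (-0.41), a subunit of the single-strand binding protein, changing most. The end-joining partners had 3 lower and 0 higher of 10, a lower share of 30%. Among those past the threshold, PAXX (-0.34), which binds Ku, and MAD2L2 (-0.30), a shieldin subunit, changed most. SHLD1, also of shieldin, had 0.32 and did not pass (edgeR adjusted p = 0.0752). Neither of the direct reversal partners ALKBH2 and ALKBH3 passed. Replication genes, listed beside them, had 8 lower and 0 higher of 13 and a median of -0.19, with CDC45 at -0.56 and GMNN at -0.47. LIG1, UNG and NEIL3, which are also known to rise with the S phase of the cell cycle, were lower in the same samples. Not all such genes fell. The other 5 replication genes, MCM2, MCM4, MCM5, CDC6 and RRM2 (0.02), did not pass, nor did the partner FEN1 (0.11) or the repair gene MSH6 (-0.03). The share of cells in S phase was not measured, and its part in these values was not tested. Among 12 p53 target genes, 3 were lower and 3 higher (25% each way, near the shares of all genes), with CDKN1A at 0.94 and BBC3 at -0.44. DDB2 and XPC, also known p53 targets, went in opposite directions.

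Of the 45 repair genes, 16 share a divergent promoter region, with another protein-coding gene starting within 1000 bp on the opposite strand. This position was examined after the members' values were seen. Of the 8 with a call, the neighbour was called the same way in 1, the opposite way in 1 and not at all in 6. Of all genes tested, 21.5% were lower and 20.1% higher, so neighbours were called no more often than that. AIMP2, whose start is 125 bp from that of PMS2, rose with it (log2 fold change 0.26, edgeR adjusted p = 0.00386). LSM3, at 196 bp from XPC, fell by 0.27 on the log2 scale (edgeR adjusted p = 0.000773) while XPC rose. ABHD13, at 24 bp from LIG4, had a log2 fold change of 0.02 and did not pass (edgeR adjusted p = 0.827).

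All 17 called repair genes had the same direction when replicates 1 to 3 and replicates 4 to 6 were fitted apart. These genes were called in a fit over the same samples, so agreement in direction was largely set by that choice and is no independent check. In replicates 1 to 3, 15 of the 17 passed, and in replicates 4 to 6 5 passed, namely NTHL1, NEIL3, LIG1, ERCC8 and LIG4. Calls over all genes also fell, from 43.8% of 14970 genes tested in replicates 1 to 3 to 17.6% of 14345 in replicates 4 to 6. The fold change was larger in replicates 1 to 3 for 14 of the 17 genes, and the difference between the sets was not tested. The spread between samples was small for most repair genes, with a median coefficient of variation of 8.30% in DMSO and 5.96% in PBKi.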

How the data were processed

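RNA was sequenced from C4-2 cells after 6 h in DMSO or PBKi, 6 samples a group. mRNA libraries were prepared from total RNA with a TruSeq kit, and the labels speak of flow-sorted cells, without giving a gate. Per the labels, the authors aligned reads with TopHat2 2.0.4 to GRCh37 and counted reads per gene with HTSeq 0.5.3p9, and they deposited raw read counts, without normalisation, in 47 lane files of 54127 genes. The strand setting of the counting is not given in the sources used here, so 7 repair genes that share at least 20% of their exon length with an antisense gene (MPG, LIG3, ERCC1, NEIL1, OGG1, XPC and MSH6) have uncertain levels. Lanes of a sample were summed, since pairs of lanes differed by no more than sampling noise, with a chi-square of 0.974 to 1.04 per degree of freedom. DMSO replicate 5 had 3 lanes and the others 4. Samples of a group differed by more than this (3.74 to 22.2).

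Genes that reached 10 counts in 6 or more samples entered edgeR 4.0.16 (R 4.3.3), TMM normalisation and the quasi-likelihood test of PBKi against DMSO without covariates, adjusted by Benjamini-Hochberg over 14505 genes at 0.05. CPM are TMM-normalised, standard errors were derived from the F statistic, and 95% intervals use a t distribution with 10 degrees of freedom. Permutation tests were exact, two-sided, on log2 CPM with a prior count of 2. Gene coordinates come from GENCODE 44 mapped to GRCh37, although the authors used an older annotation. Every repair gene is named. Full values are given for up to 6 called genes per pathway by absolute fold change, and for the gene of each pathway with the highest level per exon length. XPC was added after its values were seen. In each list of partner, replication and p53 target genes, those with the largest absolute changes past the threshold are named, where any passed. Some genes of these lists that did not pass are named as well. The members and lists were chosen with earlier results of these data known. The fit was tested on simulated counts with known changes. It recovered 11 of 68 genes with an absolute log2 change of 0.25, 43 of 66 at 0.5 and 61 of 66 at 1, with 3 false calls. Changes near 0.25 were thus mostly missed there. Far fewer genes were changed in the simulation than were called in the data, so these shares do not carry over directly.

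Alternatives were RLE factors, the Wald test of DESeq2 1.42.0, voom of limma 3.58.1, no filter or one of 50 counts, an adjusted p under 0.01, lanes 6 to 8 only, a replicate block, a covariate for replicates 1 to 3 against 4 to 6, each of these sets alone, other prior counts for ratios, and leaving out each sample. Leaving out PBKi replicates 3 and 6, and leaving out the genes with shared exons, were added after the data were seen, as were levels by the longest transcript. The siPBK arm was not analysed here.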

Additional observations from a re-analysis of the deposited data

Results flagged for a closer look

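ERCC2 in DMSO replicate 5 was at 23.3 CPM, far above the other DMSO samples, which lay between 16.6 and 18.7 CPM. Without this sample the log2 fold change of ERCC2 was -0.17 with an adjusted p of 0.0824 (edgeR). MSH6 in PBKi replicate 5 was at 86.7 CPM, while the other PBKi samples lay between 75.3 and 76.6 CPM. These were 2 of 90 groups of samples examined (2.22%), and chance alone marks about 1 in 20. The cause of either value was not tested.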

How the results depend on the processing

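Of the 17 called repair genes, 11 kept their call in all 12 fits without 1 of the samples. Over these fits the lower genes numbered 8 to 12 and the higher genes 4 to 6, with a median of -0.080 to -0.053. By pathway, lower and higher genes numbered 5 to 6 and 0 in base excision repair, 3 to 4 and 2 to 4 in nucleotide excision repair, 0 to 1 and 1 in mismatch repair, and 0 to 2 and 1 in end joining. Their medians ranged from -0.12 to -0.059, -0.11 to -0.060, -0.022 to 0.074 and -0.11 to -0.031. The mismatch repair median fell below 0 without DMSO replicates 1, 2 and 3 (-0.010, -0.019 and -0.022) and PBKi replicate 2 (-0.015). End joining had 0 lower genes without DMSO replicate 1 or PBKi replicate 4, and 1 without DMSO replicate 2, 3 or 4 or PBKi replicate 3, 5 or 6. In edgeR, APEX1 passed without DMSO replicate 6 (adjusted p = 0.0394), as did ERCC5 (0.0384), MLH3 without DMSO replicate 3 (0.0324), and XRCC1 without DMSO replicate 1 or 3 or PBKi replicate 6 (0.0245 to 0.0448). Partner ratios that differed numbered 6 to 9, where APEX1 to POLB passed without DMSO replicate 5 (adjusted permutation p = 0.0470) and XRCC5 to XRCC6 without DMSO replicate 6 (0.0103).

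RLE factors, voom and lanes 6 to 8 changed no call of a repair gene. DESeq2 added XRCC5 and XRCC1, the covariate added DDB1, APEX1, XRCC1 and XRCC5, a minimum of 50 counts lost ERCC2, and dropping the filter lost XRCC6 and PARP1, leaving 1 lower end-joining gene. At an adjusted p under 0.01, 7 repair genes were lower, with 0 in end joining. In replicates 1 to 3 the repair median was -0.054 and that of mismatch repair 0.14, with 1 lower end-joining gene. In replicates 4 to 6, with 6 samples in the fit, 4 repair genes were lower and 1 higher, with 3 lower in base excision repair, 1 lower and 0 higher in nucleotide excision repair, 0 higher in mismatch repair (median -0.038) and 0 lower in end joining. Without PBKi replicates 3 and 6 the repair median was -0.036, end joining had 0 lower genes and a median of -0.064, POLB, PARP1, ERCC2, ERCC6, XRCC4 and XRCC6 lost their calls, and XRCC1 gained one. Without the genes that share exons the repair median was -0.11. The causes of these differences were not tested.

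The deviations of samples with the same replicate number correlated positively in all 6 pairs (0.0887 to 0.299), and over 0.1 in 5, but the labels name no shared batch and not every pair passed 0.1, so pairing was left unresolved and the unpaired fit was kept. A replicate block gave 17 lower and 5 higher repair genes, with no call lost and APEX1, DDB1, MBD4, XRCC1 and XRCC5 gained. Exact sign changes of pairs left 0 partner ratios past the threshold (smallest adjusted p 0.0742). With 6 pairs their smallest p is 0.0312, so at least 12 of the 19 ratios would have to reach it for any to pass. Counting error limits NEIL1 and NHEJ1 most.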
